A study of Mus musculus with 71 samples.

Results

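The clustered protocadherins are the genes of the alpha, beta and gamma protocadherin clusters, and 58 of the 55416 Ensembl gene identifiers in the count table belonged to them. The rule for them used gene symbols and no measured value: symbols starting with Pcdha, Pcdhb or Pcdhga, Pcdhgb and Pcdhgc followed by a member number, and the alpha C-types Pcdhac1 and Pcdhac2. The alpha cluster had 14 members, the beta cluster 22 and the gamma cluster 22, of which 12 were gamma A, 7 gamma B and 3 C-type genes. Together with the C-type genes of the alpha cluster there were 5 C-type members.

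The study measured RNA in the brain of C57BL/6J mice after a non-severe skin injury. Burned mice had a brass rod 19 mm wide, heated above 90 °C, held on the shaved right dorsal flank for 10 s, which gave a full-thickness burn over 7 to 8% of the body surface. Excised mice had a full-thickness piece of skin cut from the back with a 12 mm template. Sham mice were shaved and left uninjured. All mice, the sham group included, received isoflurane and buprenorphine at 0.1 mg/kg, and the protocol gave paracetamol at 1 mg/mL in drinking water for 5 days after injury. Hippocampus gave 10 burn, 10 excision and 9 sham libraries, piriform cortex 5 burn, 4 excision and 5 sham libraries, and frontal cortex 10 burn, 10 excision and 8 sham libraries, 71 in all. Hippocampus and frontal cortex were each spread over batch 1 and batch 2, and every piriform cortex library carried batch label 3. The labels used here give neither the time after injury nor the sex and age of the mice, and they do not say whether 1 mouse gave several regions. Nor do they say that each library is a separate animal, so the p-values below measure the spread between libraries.

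Clustered protocadherins are cadherin-family adhesion molecules on neuronal surfaces that bind matching isoforms on facing membranes and give each neuron a molecular identity used in dendrite self-avoidance and circuit wiring. In the alpha and gamma clusters each member has its own large first exon, with its own promoter, which encodes the extracellular and transmembrane part and is spliced to constant exons shared by the whole cluster. The beta members are single-exon genes with no shared constant part. Most members are switched on in a random few per neuron through promoter choice that depends on DNA methylation and on CTCF and cohesin looping, whereas the C-type members are expressed in many neurons without that random choice. Pcdhac2 is known for the tiling of serotonergic axons and Pcdhgc4 for neuronal survival.

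All 58 members lay on the plus strand of chromosome 18 (GRCm38) between positions 36930184 and 37841873. The alpha cluster ran from 36930184 to 37187661, the beta cluster from 37264938 to 37524479 and the gamma cluster from 37661793 to 37841873. Over all libraries 171222 counts fell on alpha members, 423404 on beta members and 940393 on gamma members. Because of the shared constant exons, each alpha gene model overlapped 13 other alpha models and each gamma model 21 other gamma models, and only part of each belonged to 1 gene. The share of exon sequence not annotated to any other gene, called unshared exon below, had a median of 46.4% over alpha members, 100% over beta members and 54.7% over gamma members. Pcdhga10, whose annotated exons were all shared, had 0 counts in all 71 libraries, so counts describe the variable exons and not the constant ones.

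Of the 58 members, 54 passed the filter on low counts in every comparison: 12 alpha, 21 beta and 21 gamma. Beside Pcdhga10, the filter left out Pcdha4 with 103 counts in all, Pcdha11 with 32 and Pcdhb1 with 267. Pcdha4 and Pcdha11 had little unshared exon, 7.0% and 16.8% of their models, whereas Pcdhb1 shared none of its 2588 bases with another gene and was still at 0 in 16 libraries. Pcdhb12 overlapped a further gene model, Gm37446, over all but 36.5% of its exon, and its values are uncertain for that reason. The members are also near-identical in parts of their sequence, and the sources used here do not say how reads matching several of them were counted.

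Libraries held 6.65 M to 87.8 M counts (M for the SI prefix mega), with a median of 57 M, and the 4 libraries under 10 M were all from hippocampus. Members took 0.0222 to 0.0580% of the counts of a library. Titles of the piriform libraries name frontal cortex while their tissue field names piriform cortex. CPM below are counts-per-million of a library size adjusted by edgeR's TMM scaling, and not of the raw library total. A list of 3 endopiriform and claustrum markers summed to 143 to 241 CPM in piriform libraries and 51.3 to 104 CPM in frontal libraries, with no overlap. In 4 libraries (frontal cortex burn 7 and 8, frontal cortex excision 7 and piriform cortex sham 2) the title and the treatment field named different treatments, and the treatment field was used. Piriform cortex sham 1 stood apart, with 287.8 CPM of 6 hippocampal markers against 20.04 to 29.98 CPM in the 13 other piriform libraries, and 208.8 CPM of choroid plexus markers against at most 55.0 CPM. It also had the lowest alpha and gamma sums of its region, 19.6 and 162.6 CPM, so region results are given with and without it.

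The C-types Pcdhgc5, Pcdhgc3 and Pcdhac2 gave the highest levels per length of unshared exon. As mean CPM per kb of unshared exon over all libraries, Pcdhgc5 reached 18.04, Pcdhgc3 13.4, Pcdhac2 7.24 and Pcdhga11 6.89. Pcdhac2 stood well above the next alpha members, Pcdha12 at 2.00 and Pcdha5 at 1.21 CPM per kb. Among beta members Pcdhb9 led with 4.53 CPM per kb, followed by Pcdhb12 at 2.45 and Pcdhb20 at 2.44. The weakest of the members that passed the filter were, in the alpha cluster, Pcdha8 at 0.302, Pcdha1 at 0.506 and Pcdha2 at 0.668 CPM per kb. In the beta cluster they were Pcdhb21 at 0.385, Pcdhb18 at 0.610 and Pcdhb2 at 0.681, and in the gamma cluster Pcdhgb8 at 0.664, Pcdhgb4 at 0.872 and Pcdhgb5 at 0.982 CPM per kb. GENCODE M21 lists Pcdhgb8 as a polymorphic pseudogene. The median level per kb was 3.18 CPM over gamma members, 1.08 over beta members and 0.878 over alpha members. The order depends on the length used. Per kb of the whole exon model Pcdhgc5 still led with 10.89 CPM, but Pcdhb9 came next at 4.53, above Pcdhgc3 at 4.45 and Pcdhac2 at 3.72. Pcdhga11 fell to 1.82, below Pcdhga6 at 2.56, and Pcdhb12 fell to 0.89, below Pcdhb20 at 2.44.

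**Figure D1:**
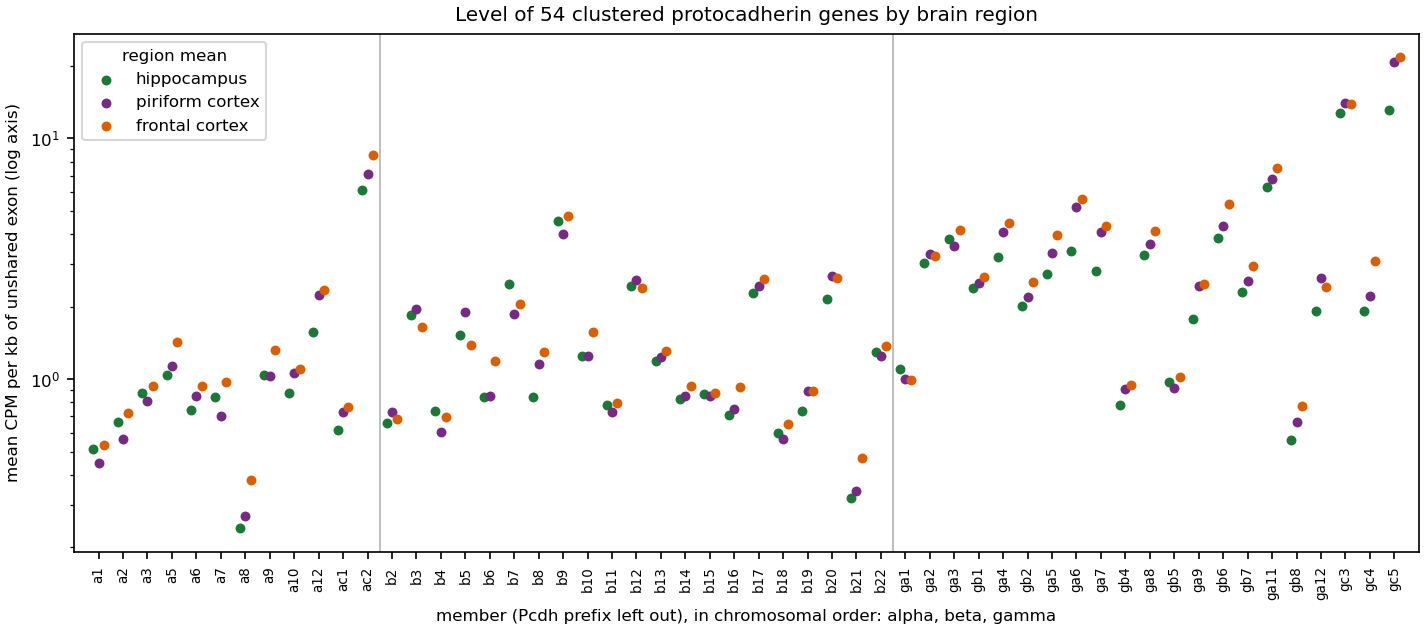
Mean level of the 54 clustered protocadherins that passed the filter, in CPM per kb of unshared exon on a log axis, with members in chromosomal order and 1 point per region (hippocampus n = 29 libraries, piriform cortex n = 14, frontal cortex n = 28). Pcdhgc5, Pcdhgc3 and Pcdhac2 sit highest, and the hippocampal points of Pcdhgc5, Pcdhga6 and Pcdhgc4 lie below those of both cortical regions.

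For 4 of the 5 C-types the median was lowest in hippocampus and highest in frontal cortex, and Pcdhgc3 was the exception. Pcdhgc5 had 35.9 to 79.7 CPM in hippocampus (median 60.2), 52.7 to 119.1 CPM in piriform cortex (median 96.5) and 64.7 to 137.5 CPM in frontal cortex (median 97.4). Pcdhgc4 had 3.50 to 9.15 CPM in hippocampus (median 6.74), 4.48 to 8.97 in piriform cortex (median 8.05) and 6.96 to 15.8 in frontal cortex (median 10.7). The hippocampal libraries were thus low for both genes, while piriform cortex stood with frontal cortex for Pcdhgc5 and nearer to hippocampus for Pcdhgc4. Pcdhgc3 lay close together everywhere, at 23.2 ± 3.60 CPM in hippocampus, 25.6 ± 2.48 CPM in piriform cortex and 25.2 ± 4.82 CPM in frontal cortex (SD, n = 29, 14 and 28). Pcdhac2 had 6.95 to 28.6 CPM in hippocampus (median 17.6), 8.07 to 29.2 in piriform cortex (median 21.7) and 7.93 to 41.0 in frontal cortex (median 24.4), with a wide spread within each region. Pcdhac1 was the weakest C-type, with medians of 1.56, 1.79 and 1.90 CPM in hippocampus, piriform cortex and frontal cortex.

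Hippocampus was set against frontal cortex over all 3 treatments. Clustered protocadherins were mostly lower in hippocampus. The test was edgeR's quasi-likelihood test across all genes, with Benjamini-Hochberg adjusted p and a threshold of 0.05. It called 33 of the 54 members, 31 lower and 2 higher in hippocampus. Of all genes tested, 60.1% were called in either direction, 30.9% lower and 29.2% higher, so the share of members called was near the background while its split by direction was not. Because members vary together across libraries, as described below, this split does not count separate observations. Called lower were 7 of 12 alpha members, 9 of 21 beta members and 15 of 21 gamma members, and the 2 called higher were both beta. Over all 54 members the median log2 fold change was −0.29, against −0.02 over all genes tested. By cluster it was −0.35 for alpha, −0.15 for beta and −0.34 for gamma.

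Among gamma members the largest differences were in Pcdhga6, Pcdhgc5 and Pcdhgc4. Pcdhga6 had 4.88 to 12.6 CPM in hippocampus (median 8.75) and 8.35 to 20.2 CPM in frontal cortex (median 14.5). Its log2 fold change was −0.73, with an SE of 0.07 and an adjusted p of 3.8e-13. For Pcdhgc5 it was −0.73 (SE 0.07, adjusted p = 7.9e-15) and for Pcdhgc4 −0.71 (SE 0.07, adjusted p = 1.9e-13). The ranges of the regions overlapped for all 3 genes, and the hippocampal medians were the lower ones. Pcdhgc3, beside them at the end of the cluster, was not called (−0.12, SE 0.06). By subfamily, 8 of 11 gamma A and 5 of 7 gamma B genes were called lower.

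Among beta members Pcdhb8 fell most, with 1.41 to 4.09 CPM in hippocampus (median 3.09) and 1.52 to 7.78 CPM in frontal cortex (median 4.29). Its log2 fold change was −0.66, with an SE of 0.10 and an adjusted p of 1.2e-07. Pcdhb21 and Pcdhb6 followed at −0.58 and −0.51. Pcdhb7 and Pcdhb5 went the other way. Pcdhb7 had 6.41 to 11.01 CPM in hippocampus (median 8.53) and 3.74 to 9.88 CPM in frontal cortex (median 7.16), so that hippocampus was higher by 0.26 on the log2 scale, with an SE of 0.06 and an adjusted p of 0.000384. Pcdhb5 had 3.54 to 6.94 CPM in hippocampus and 3.30 to 7.41 CPM in frontal cortex, a log2 fold change of 0.15 (adjusted p = 0.0359). These genes stand close together: Pcdhb5 starts at 37320381 and Pcdhb7 at 37341702, with Pcdhb6, lower in hippocampus, between them.

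Among alpha members Pcdha8 had the largest fold change, −0.66 (SE 0.16) with an adjusted p of 0.000372, and a low level of 0.115 to 1.14 CPM in hippocampus and 0.167 to 2.16 CPM in frontal cortex. Pcdha12 had 1.47 to 5.24 CPM in hippocampus (median 3.12) and 1.71 to 7.44 CPM in frontal cortex (median 4.36). It gave −0.55, with an SE of 0.11 and an adjusted p of 1.1e-05. Pcdha5 fell by 0.47 and Pcdhac2 by 0.46 (adjusted p = 0.000520 and 0.000426). Pcdhac1 was not called.

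Both batches gave values for this comparison. Batch 1 alone called 41 members, with 57.3% of all genes called, and 32 of the 33 were among them. Batch 2 alone called 17 members, all among the 33, with 48.1% of all genes called. The alpha members were the ones most affected: all 7 called alpha members missed the threshold in batch 2 alone, Pcdhac2 with an adjusted p of 0.287 and Pcdha12 with one of 0.0860. With sham libraries alone 28 members were called, 26 of them among the 33, with 39.4% of all genes called, and neither Pcdhb7 nor Pcdhb5 was called higher. Without piriform cortex sham 1, which shares the fit, 35 were called, including Pcdhac1 and Pcdhgc3 as lower, with 60.7% of all genes called.

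**Figure D2:**
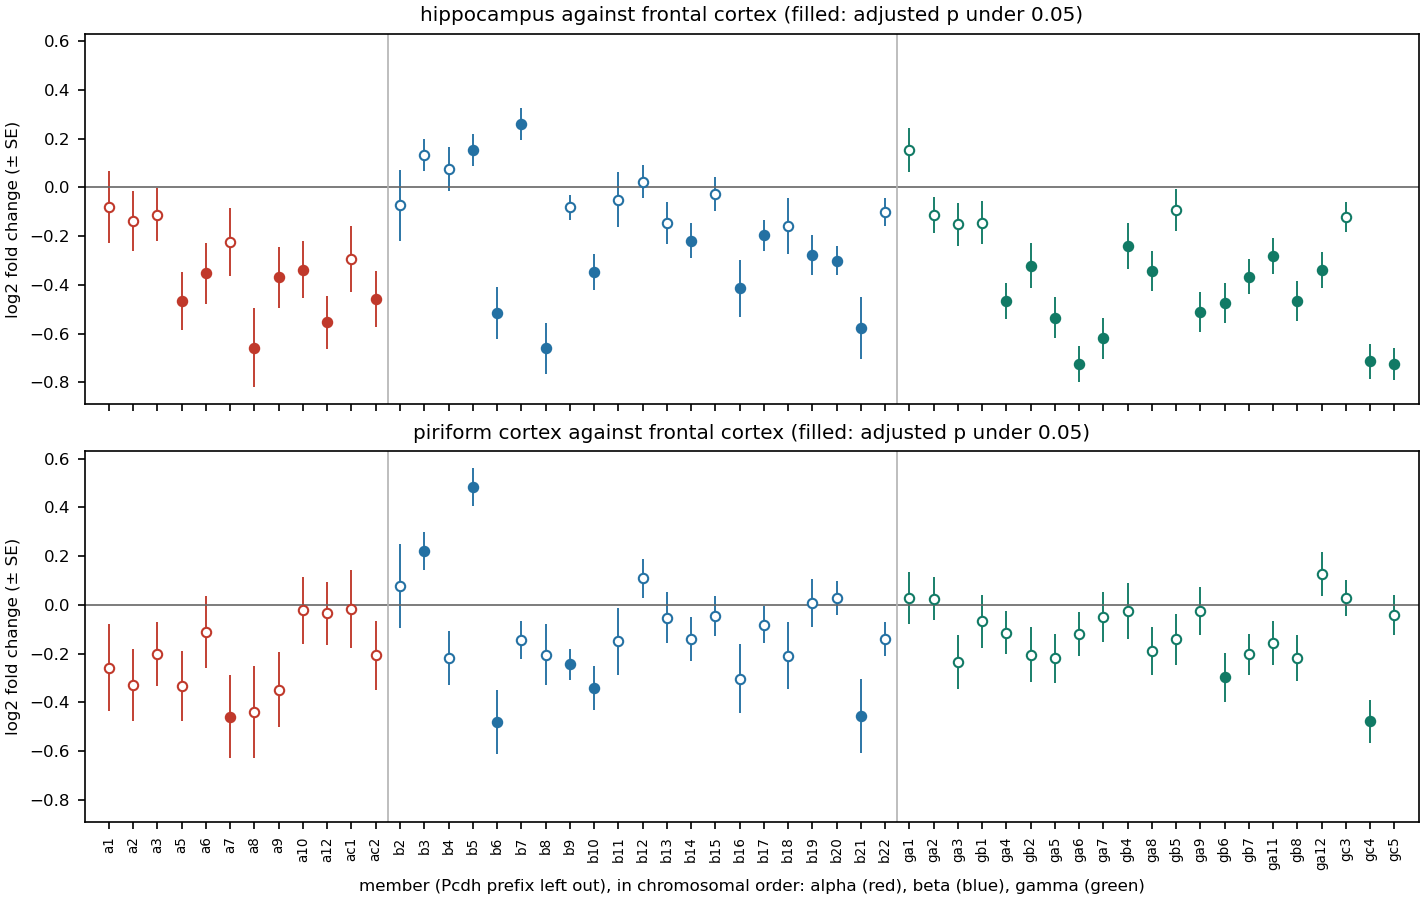
Log2 fold changes of 54 clustered protocadherins, with bars of 1 SE, for hippocampus against frontal cortex (upper panel) and piriform cortex against frontal cortex (lower panel), in chromosomal order; filled points passed an adjusted p of 0.05. In the upper panel 31 filled points lie below 0, and in the lower panel 9 points are filled, with Pcdhb5 highest at 0.48.

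Piriform cortex was closer to frontal cortex. All piriform libraries came from a batch of their own, so region and batch cannot be told apart here. Of the 54 members 9 were called, 2 higher and 7 lower in piriform cortex, with 36.3% of all genes called, 18.7% higher and 17.6% lower. The share of members called was thus below that of all genes, and the median log2 fold change was −0.14, against −0.01 over all genes. Pcdhb5 had 4.59 to 10.2 CPM in piriform cortex (median 6.53) and 3.30 to 7.41 CPM in frontal cortex (median 4.82), which put it higher by 0.48 (SE 0.08) with an adjusted p of 8.9e-07. Pcdhb3 was the other member called higher, at 0.22 (adjusted p = 0.0200).

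The members called lower in piriform cortex came from all 3 clusters. Pcdhgc4 fell by 0.48 (log2; SE 0.09) with an adjusted p of 1.6e-05 and Pcdhgb6 by 0.30. In the beta cluster Pcdhb6 had 2.28 to 4.43 CPM in piriform cortex (median 3.22) and 2.20 to 8.89 CPM in frontal cortex (median 4.49), a log2 fold change of −0.48 (adjusted p = 0.00262). Pcdhb21, Pcdhb10 and Pcdhb9 were lower by −0.46, −0.34 and −0.24. Pcdha7 was the single alpha member called, at −0.46 (adjusted p = 0.0284). Without piriform cortex sham 1, where 35.6% of all genes were called, the other 8 members stayed past the threshold and Pcdha7 had an adjusted p of 0.0599. Sham libraries alone called 3 of the 9 (Pcdhb5, Pcdhb6 and Pcdhgc4), with 11.9% of all genes called.

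Between hippocampus and piriform cortex 18 members were called, 3 higher and 15 lower in hippocampus, with 61.1% of all genes called, 29.9% higher and 31.2% lower. The share of members called was again below that of all genes, and region and batch cannot be told apart in this comparison either. Pcdhgc5 fell most, by 0.68 (log2; SE 0.08) with an adjusted p of 3.9e-11, followed by Pcdhga6 at −0.61 and Pcdhga7 at −0.57. Pcdhga7 had 4.25 to 9.91 CPM in hippocampus (median 7.11) and 4.85 to 14.5 CPM in piriform cortex (median 10.5). In the other clusters Pcdha12 fell by 0.52 and Pcdha10 by 0.32, and Pcdhb8, Pcdhb20 and Pcdhb5 were lower by −0.46, −0.33 and −0.33. Pcdhb7 was higher by 0.40 (SE 0.08, adjusted p = 1.3e-05), with 6.41 to 11.01 CPM in hippocampus and 5.01 to 8.15 CPM in piriform cortex. Pcdhb4 and Pcdhb9 were higher by 0.29 and 0.16, and both lost the call without piriform cortex sham 1 (adjusted p = 0.0566 and 0.0804). Without that library 21 members were called, 16 of them shared with the 18, with 62.2% of all genes called, and Pcdhac2 at −0.34 and Pcdhgc3 at −0.20 were among those gained.

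The regions also differ in their cell makeup. A sum of 6 neocortical layer markers was 123 to 290 CPM in hippocampus, 390 to 867 CPM in piriform cortex and 177 to 606 CPM in frontal cortex, and 6 choroid plexus markers reached 6721 CPM in 1 hippocampal library. In whole tissue, fewer cells of a type and less RNA per cell cannot be told apart. The part of cell makeup in the region differences of the protocadherins was not tested.

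Burn injury was compared with sham and with excision, and excision with sham, within each region, with batch as a term where there were several. None of the 54 members was called in any of these 9 comparisons, by edgeR or by DESeq2. Over all genes edgeR called 1.03% for burn against sham in hippocampus (0.291% higher and 0.741% lower), 0.28% in frontal cortex (0.161% higher and 0.119% lower) and 0% in piriform cortex. For burn against excision it called 0.209% in hippocampus (0.0664% higher and 0.143% lower), 0.209% in frontal cortex (0.0807% higher and 0.128% lower) and 0% in piriform cortex, and for excision against sham 0% in each region. Few genes of any kind were called, so the counts of 0 do not set the members apart. The median SE of a member's log2 fold change for burn against sham was 0.21 in hippocampus for alpha, 0.12 for beta and 0.14 for gamma members, which sets the size of difference that could be seen.

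In hippocampus, burn and excision libraries had higher median protocadherin sums than sham libraries, with no member called. The summed alpha level was 26.5 to 57.6 CPM in burn (median 39.8), 28.3 to 57.0 CPM in excision (median 38.7) and 15.9 to 56.0 CPM in sham (median 33.4). The summed gamma level was 165.6 to 248.7 CPM in burn (median 212.1), 158.3 to 255.7 CPM in excision (median 209.5) and 123.0 to 242.0 CPM in sham (median 190.6). Groups overlapped widely, and the lowest sums were in sham libraries. For burn against sham 53 of 54 fold changes were above 0, where 53.59% of all genes were, and the medians were 0.32 for alpha, 0.17 for beta and 0.21 for gamma members. Members vary together across libraries, as described below, so these fold changes are not separate observations. An unadjusted p under 0.05 was reached by 9 of 54 members, 7 of them beta, and by 17.7% of all genes, so the members' count is near the background.

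The members nearest to the threshold in hippocampus were Pcdhb14, Pcdhgc4 and Pcdhb8. Pcdhb14 had 5.87 to 11.3 CPM in burn (median 7.47), 5.40 to 9.85 in excision (median 7.13) and 4.16 to 8.75 in sham (median 5.90), with a log2 fold change of 0.39 for burn against sham (adjusted p = 0.107). Pcdhgc4 had 5.67 to 9.15 CPM in burn (median 7.24), 5.54 to 8.62 in excision (median 7.01) and 3.50 to 7.83 in sham (median 5.90), a log2 fold change of 0.37 (adjusted p = 0.121). Without sham 9 it gave 0.44 and passed the threshold, with an adjusted p of 0.0416. Excision libraries lay near burn libraries for both genes, and all groups overlapped. Pcdhb8 gave 0.44 (SE 0.15, adjusted p = 0.123), Pcdhb15 0.30 (adjusted p = 0.137) and Pcdhb20 0.23 (adjusted p = 0.192). For excision against sham 50 of 54 fold changes were above 0, where 48.63% of all genes were, and members vary together here too. An unadjusted p under 0.05 was reached by 9 members (3.71% of all genes), with no adjusted p below 0.852. Pcdhgc4 gave 0.32, Pcdhb14 0.31, Pcdhga4 0.30, Pcdhb5 0.23 and Pcdhb7 0.22. These comparisons use the same sham libraries. For burn against excision no member reached an unadjusted p under 0.05 (14.3% of all genes did), and the closest, with a smallest adjusted p of 0.413, were Pcdhb7 at −0.16, Pcdhb12 at 0.16, Pcdhb15 at 0.17, Pcdhb19 at 0.18 and Pcdhb5 at −0.14.

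**Figure D3:**
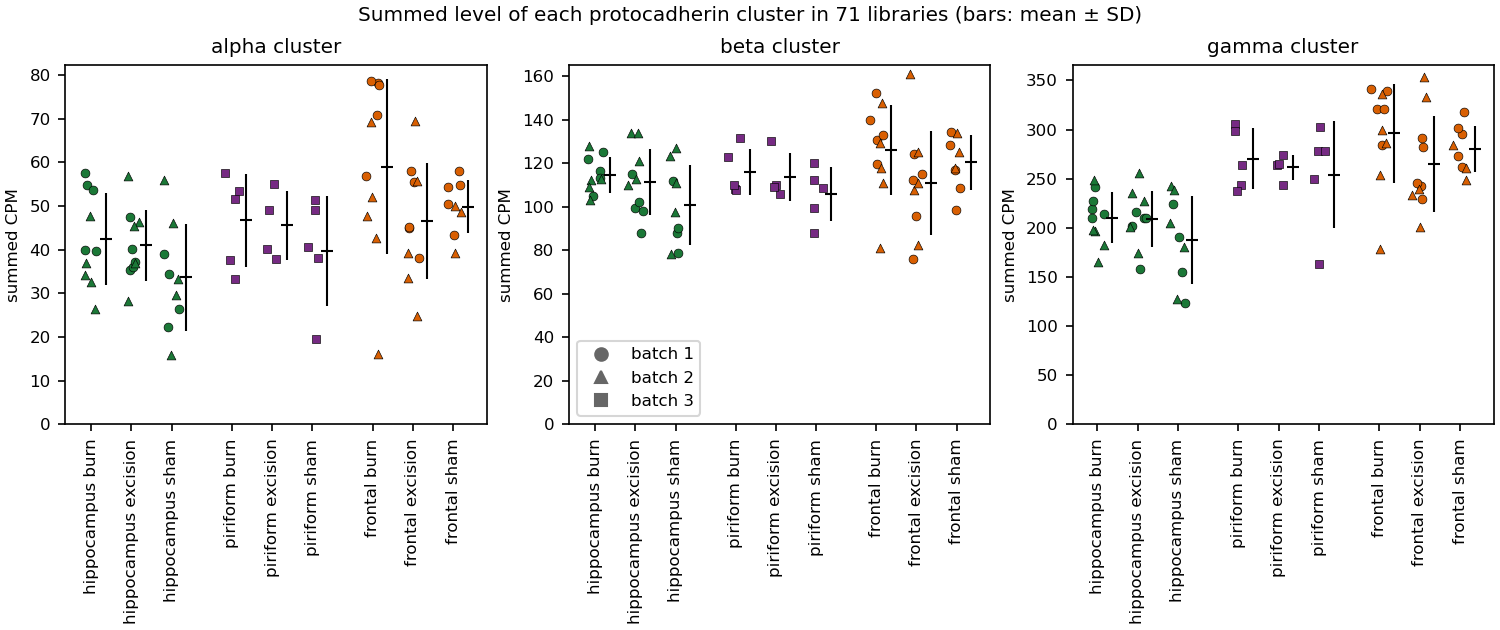
Summed CPM of the alpha, beta and gamma clusters in each of 71 libraries by region and treatment, with the mean and SD as bars and symbols for batches. Treatment groups overlap in every region. In the alpha panel the frontal burn libraries of batch 1 lie at 56.8 to 78.8 CPM and include the highest point. Other libraries fall within that range, such as frontal excision 6 of batch 2 at 69.6 CPM, and 1 frontal burn library of batch 2 lies at 16.1 CPM.

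In frontal cortex, burn libraries spread over a wide range. The summed alpha level was 16.1 to 78.8 CPM in burn (median 63.0), 24.9 to 69.6 CPM in excision (median 45.2) and 39.2 to 58.0 CPM in sham (median 50.3). Burn libraries thus held both the highest and the lowest values. For burn against sham 41 of 54 fold changes were above 0, where 46.41% of all genes were. An unadjusted p under 0.05 was reached by 0 members (13% of all genes). The smallest adjusted p was 0.408, of Pcdhga5 at 0.28 and Pcdha6 at 0.43. Pcdhgc3 gave −0.22, Pcdhac2 0.32 and Pcdha12 0.29. For burn against excision all 54 were above 0, where 47.8% of all genes were. An unadjusted p under 0.05 was reached by 4 members (11.6% of all genes). The smallest p were those of Pcdhb9 at 0.22 (adjusted p = 0.327), Pcdhb19 at 0.37, Pcdha8 at 0.69 (adjusted p = 0.382), Pcdhb5 at 0.25 and Pcdhga12 at 0.26. For excision against sham 47 of 54 were below 0, where 48.32% of all genes were above 0. An unadjusted p under 0.05 was reached by 1 member (4.78% of all genes). The medians were −0.11, −0.13 and −0.08 for alpha, beta and gamma members. There Pcdhgc3 gave −0.28, Pcdhb8 −0.42, Pcdhga11 −0.22, Pcdhb4 −0.28 and Pcdhb9 −0.13, all with adjusted p of at least 0.951. Members vary together across libraries, as described below, so these counts by direction are not counts of separate observations.

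In piriform cortex no group stood apart either. Gamma members summed to 237.9 to 305.9 CPM in burn, 243.3 to 273.7 CPM in excision and 162.6 to 302.1 CPM in sham. The 162.6 CPM were those of sham 1, the library that stood apart in its markers. The next lowest sham sum was 249.3 CPM in sham 2, whose title names excision. Leaving out any 1 of the 14 libraries, these included, gave 0 members called in each piriform comparison. Pcdhb11 came closest for burn against sham, with 3.26 to 5.21 CPM in burn (median 3.46), 2.39 to 3.56 in excision (median 2.88) and 2.37 to 3.55 in sham (median 2.79), a log2 fold change of 0.38 (adjusted p = 0.884). Pcdhgb8 gave 0.345, Pcdhga9 0.32, Pcdha1 0.67 and Pcdhb10 0.30, and 2 members had an unadjusted p under 0.05 (4.27% of all genes). No member reached an unadjusted p under 0.05 for burn against excision (7.89% of all genes did), where Pcdhb11 gave 0.39, Pcdhb2 0.40, Pcdhb8 0.33, Pcdhb3 0.25 and Pcdhga8 0.24. The same held for excision against sham (5.25% of all genes), where Pcdha2 gave 0.42, Pcdhb4 0.34, Pcdhgb8 0.34, Pcdhgb5 0.29 and Pcdhb9 0.25.

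Fitted within each batch, the fold changes of burn against sham were mostly larger in batch 1, but in hippocampus no member was called for the difference between batches. In hippocampus, batch 2 alone gave median log2 fold changes of −0.05 for alpha, 0.09 for beta and 0.04 for gamma members, whereas batch 1 alone gave 0.65, 0.32 and 0.29. Batch 2 alone called no member by edgeR, and 0 had an unadjusted p under 0.05 (7.92% of all genes). Batch 1 alone called 7 members, all higher in burn: Pcdha3 at 0.65, Pcdha9 at 0.74, Pcdhac2 at 0.74, Pcdhb9 at 0.42, Pcdhb14 at 0.61, Pcdhga9 at 0.68 and Pcdhgc4 at 0.55. In that batch 7.09% of all genes were called, 1.88% as higher. Hippocampal libraries of batch 1 were the shallower ones, with 6.65 M to 34.1 M counts. The share of counts on gene models that GENCODE M21 marks as still to be experimentally verified also differed between the groups there, with overlap: it was 0.0436 to 0.0560% in burn (median 0.0484%), 0.0466 to 0.0712% in excision (median 0.0619%) and 0.0510 to 0.0858% in sham (median 0.0704%). In these libraries it had r of −0.52 with the alpha, −0.67 with the beta and −0.63 with the gamma sum. Treatment means were left in, so these r include the differences between treatment groups. The part of this share in the batch 1 values was not tested.

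Pcdhga9 had the smallest adjusted p for this difference between batches. In hippocampal batch 2 the burn libraries had 8.14, 6.72, 6.16, 4.08 and 4.62 CPM and the sham libraries 5.76, 7.55, 4.65, 5.83 and 7.96 CPM, and the groups overlapped. In batch 1 the burn libraries had 7.84, 7.97, 6.93, 7.41 and 6.54 CPM and the sham libraries 6.17, 3.61, 3.92 and 4.54 CPM, with no overlap (adjusted p = 0.0169 in that batch). Pcdhac2 likewise had 22.3, 15.0, 17.6, 12.3 and 17.2 CPM in batch 2 burn, within the range of the 14.9, 21.7, 6.95, 13.0 and 26.5 CPM of batch 2 sham. In batch 1 it had 28.6, 26.5, 19.0, 26.4 and 19.8 CPM in burn, all above the 18.6, 11.2, 9.55 and 17.2 CPM in sham. The difference between batches was tested as the burn effect in batch 2 minus that in batch 1. No member was called by edgeR (11 had an unadjusted p under 0.05, against 11.6% of all genes, and 0.00835% of all genes were called), and Pcdhga9 gave −0.82 with an adjusted p of 0.233. The medians of this difference were −0.71 for alpha, −0.30 for beta and −0.31 for gamma members, and −0.02 over all genes. Pcdha9 gave −1.07, Pcdha3 −0.91, Pcdhgb5 −0.67 and Pcdhb9 −0.44.

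**Figure D4:**
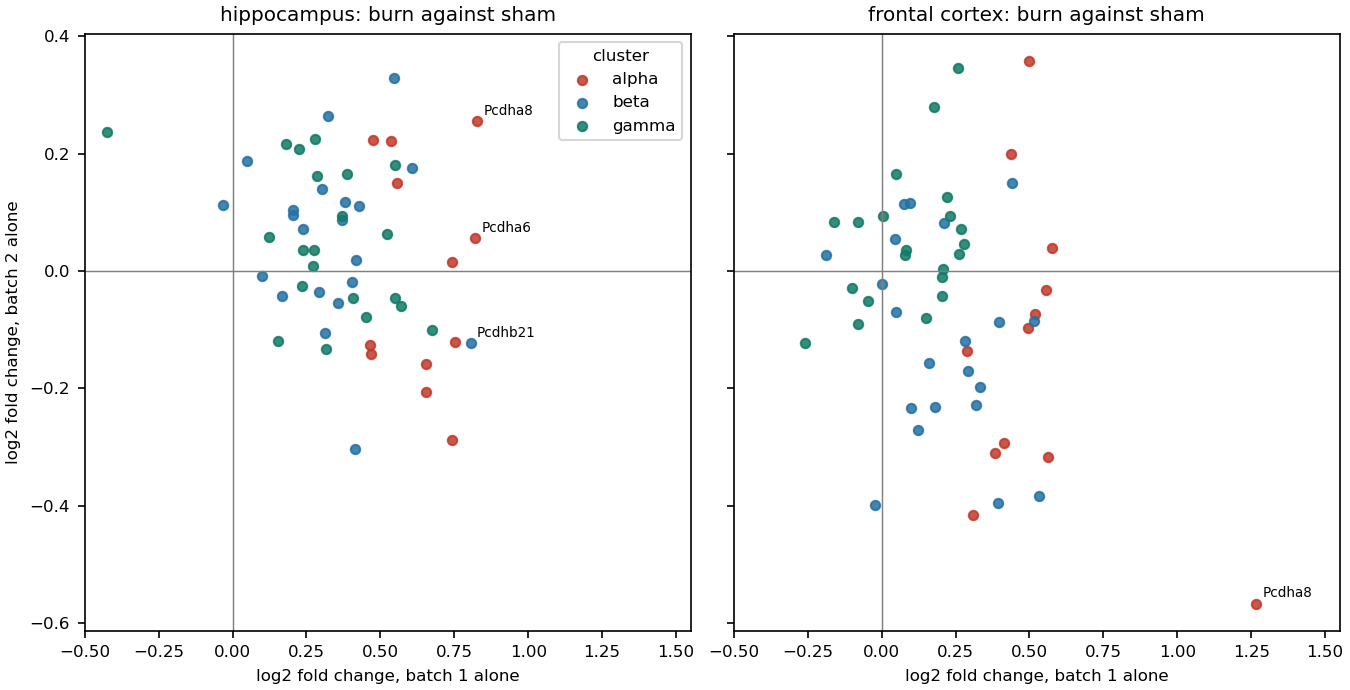
Log2 fold change of burn against sham in batch 2 alone (y axis) and in batch 1 alone (x axis) for 54 clustered protocadherins, in hippocampus (left) and frontal cortex (right), coloured by cluster. Most points lie right of 0 and scatter around 0 on the y axis, and Pcdha8 in frontal cortex lies farthest out, at −0.57 in batch 2 and 1.27 in batch 1.

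In frontal cortex the summed alpha level in batch 2 was 45.6 ± 19.3 CPM in burn, 44.6 ± 17.95 CPM in excision and 46.0 ± 5.94 CPM in sham (SD, n = 5, 5 and 3). In batch 1 it was 72.5 ± 9.34 CPM in burn, 48.4 ± 8.20 CPM in excision and 52.2 ± 5.56 CPM in sham (SD, n = 5 each). Batch 1 alone called Pcdhac2 for burn against sham, at 0.44 (adjusted p = 0.0395), which is 1 of 54 members where 6.5% of all genes were called. For burn against excision it called 6 members higher, Pcdha7 at 0.85, Pcdha10 at 0.63, Pcdhac2 at 0.59, Pcdhb5 at 0.51, Pcdhb17 at 0.43 and Pcdhgc5 at 0.35, with 6.45% of all genes called and 2.17% higher. Batch 2 alone called none by edgeR in either comparison, with 0 unadjusted p under 0.05 (5.39% of all genes for burn against sham and 2.24% for burn against excision). In that batch the titles of burn 7 and 8 name sham and the title of excision 7 names burn. Batch 2 alone was not fitted without these libraries.

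Pcdha8 was the member whose burn effect in frontal cortex differed between batches. In batch 2 it had 0.255, 0.945, 0.881, 0.846 and 0.754 CPM in burn and 0.907, 0.920 and 1.47 CPM in sham. In batch 1 it had 1.58, 2.16, 1.97, 2.03 and 0.913 CPM in burn and 0.403, 0.713, 0.885, 0.951 and 0.611 CPM in sham. Burn libraries were thus mostly below sham in batch 2 and mostly above it in batch 1. The titles of burn 7 and 8 of batch 2, at 0.945 and 0.881 CPM, name sham. The difference of the effects was −1.85 (log2; SE 0.53) with an adjusted p of 0.0490, where 1.80% of all genes were called, 1.18% lower. The call was lost when any of 11 of the 18 burn and sham libraries was left out (burn 1, 2, 3, 4, 6, 7 or 10, or sham 1, 3, 6 or 8). It was also lost without the libraries under 10 M counts, which are all from hippocampus and only share the fit. The call thus lay close to the threshold and changed with the libraries in the fit. The medians of the difference were −0.61 for alpha, −0.40 for beta and −0.07 for gamma members, against 0.07 over all genes.

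The burn effect was also compared between hippocampus and frontal cortex. No member differed by edgeR (3 had an unadjusted p under 0.05, against 8.3% of all genes, and 0% of all genes were called). Pcdhb8 gave a difference of 0.68 (adjusted p = 0.465), Pcdhgc4 0.47, Pcdhgc3 0.36, Pcdhb14 0.35 and Pcdhga11 0.30.

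Between the batches themselves, over all treatments, Pcdhb17 was the member called in hippocampus. It had 7.90 to 13.2 CPM in batch 2 (median 12.1) and 5.40 to 12.6 CPM in batch 1 (median 9.45). Batch 2 was higher by 0.33 (log2; SE 0.09) with an adjusted p of 0.0167. Of all genes 6.92% were called, 3.79% higher and 3.13% lower in batch 2. In frontal cortex it was Pcdhac2, with 7.93 to 36.7 CPM in batch 2 (median 21.4) and 19.9 to 41.0 CPM in batch 1 (median 29.2). Batch 2 was at −0.46 (log2; SE 0.16) with an adjusted p of 0.0399, where 16.7% of all genes were called, 6.71% lower in batch 2. In both regions 1 of 54 members is below the share of all genes. The Pcdhac2 call in frontal cortex depends on single libraries: it was lost without burn 2, 4, 6 or 10 or sham 5 or 7, with the highest adjusted p, 0.0901, without sham 7, and 3 members were called without burn 7.

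Clustered protocadherins had a higher median spread between libraries of the same region, batch and treatment than all genes tested. The SD of log2(CPM + 0.5) within such groups had a median of 0.38 over alpha, 0.26 over beta and 0.29 over gamma members, and 0.21 over all genes tested. No comparison with genes of like level was made. Region took a median of 27.9% of the variance of gamma members, 9.66% of alpha and 11.2% of beta members, and 21.1% over all genes. It was highest for Pcdhgc5 at 62.9%, Pcdhga6 at 58.9% and Pcdhgc4 at 54.8%, and lowest for Pcdhb15 at 0.492%.

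Members were high and low in the same libraries. After the means of region, batch and treatment were removed, pairs of members had a median correlation r of 0.532 over 1431 pairs and 71 libraries, from −0.125 to 0.921, and pairs of all genes tested had a median of −0.002. Within clusters the median was 0.665 for alpha, 0.630 for gamma and 0.501 for beta pairs, and between alpha and gamma members it was 0.587. Neighbouring genes had 0.701 in the gamma cluster against 0.624 for pairs that were not neighbours, 0.527 against 0.493 in the beta cluster and 0.675 against 0.658 in the alpha cluster. The highest pair was Pcdhac2 with Pcdhgc5, at 0.921, which are C-types of different clusters. Next were Pcdhga12 with Pcdhgc4 at 0.867, Pcdhac2 with Pcdhga12 at 0.858 and Pcdhac1 with Pcdhac2 at 0.841. Pcdhb12 and Pcdhb15 had the lowest, −0.125. These points share libraries, depth and scaling, and the correlations are descriptions.

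**Figure D5:**
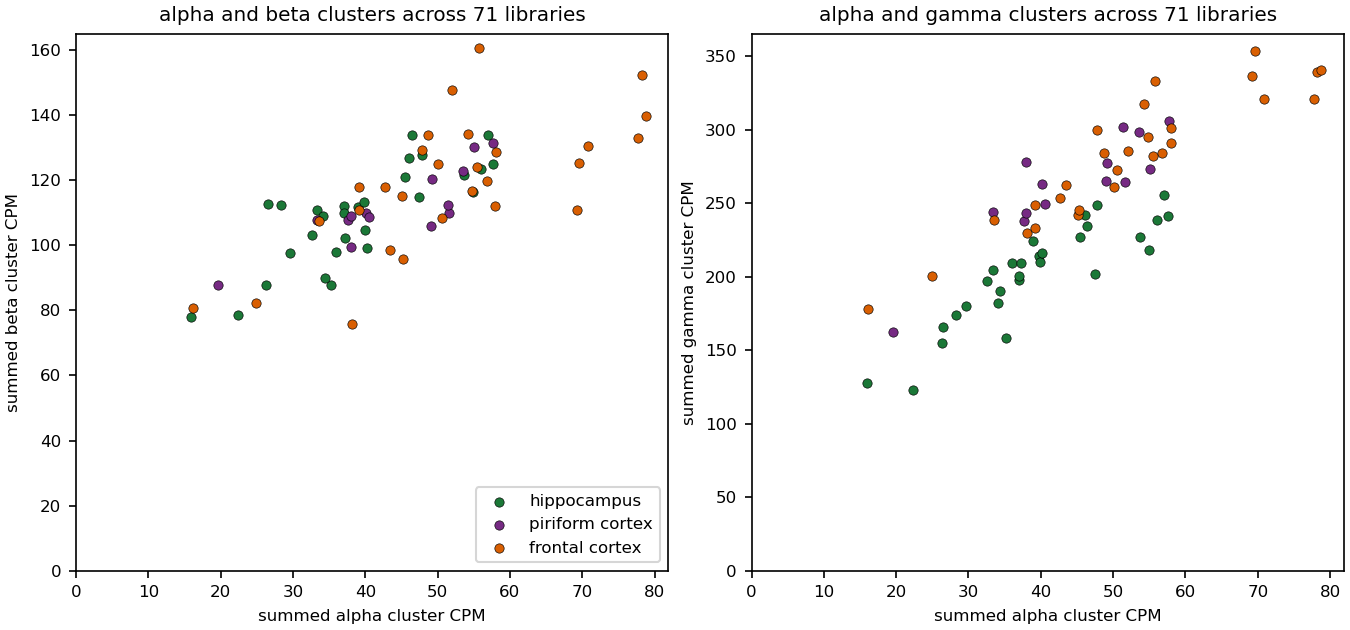
Summed alpha cluster CPM against summed beta (left) and gamma (right) cluster CPM in 71 libraries, coloured by region. The clusters are high and low in the same libraries, and hippocampal points mostly lie below frontal points at like alpha levels in the gamma panel.

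The cluster sums gave a correlation of 0.923 between alpha and gamma, 0.80 between alpha and beta and 0.794 between beta and gamma after the same means were removed (n = 71). The lowest alpha sums were 15.9 CPM in hippocampus sham 7, 16.1 CPM in frontal cortex burn 6 and 19.6 CPM in piriform cortex sham 1. The mitochondrial share of frontal cortex burn 6 was 7.135%, near the top of the frontal burn libraries (3.08 to 7.137%, median 5.49%). It was 7.137% in frontal cortex burn 9 with an alpha sum of 47.8 CPM, and 8.59% in frontal cortex sham 2 with 54.8 CPM. Against the mitochondrial share the sums had r of −0.34 for alpha, −0.05 for beta and −0.37 for gamma, with the same means removed. Within single batches the alpha value ranged from −0.59 in frontal cortex batch 2 to 0.37 in frontal cortex batch 1. Treatment means were left in for these batch values, so they are not of like kind with the −0.34. Marker sums of some cell types rose with the clusters and others fell. For alpha, beta and gamma r was 0.47, 0.53 and 0.52 with 4 thalamus markers, of which Rora had the highest median in each region. It was 0.28, 0.58 and 0.41 with 5 astrocyte markers and 0.25, 0.53 and 0.30 with 6 inhibitory neuron markers. Negative values were −0.16, −0.48 and −0.17 with 4 excitatory neuron markers and −0.14, −0.38 and −0.23 with 6 neocortical layer markers. With 5 oligodendrocyte markers r was −0.24, −0.07 and −0.10. With 6 choroid plexus markers r was 0.05, 0.03 and 0.11. The part of tissue makeup and RNA quality in the shared variation was not tested.

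The genes known to act on or with clustered protocadherins were taken as lists. None of 20 regulators of their promoters and chromatin, of 18 intracellular partners and processing enzymes or of 12 non-clustered protocadherins was called in the 9 treatment comparisons. In hippocampus against frontal cortex, where 60.1% of all genes were called, 1 regulator was called higher and 9 lower. The DNA methyltransferases Dnmt3a and Dnmt1 fell by 0.62 and 0.41 on the log2 scale and the cohesin subunit Smc1a by 0.16, and the transcription factor Lhx2 was higher by 0.38. Of the partners 5 were called higher and 8 lower: the focal adhesion kinase Ptk2 fell by 0.45, its relative Ptk2b was higher by 0.55, Cyfip1 of the WAVE complex was higher by 0.38, and Marcks and the gamma-secretase subunit Ncstn fell by 0.57 and 0.20. Among non-clustered protocadherins 4 were called higher and 6 lower, with larger fold changes. Pcdh20 was higher by 1.83, Pcdh19 by 0.96 and Pcdh8 by 0.83, and Pcdh10 and Pcdh7 were lower, at −1.34 and −0.90.

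In piriform cortex against frontal cortex, where 36.3% of all genes were called, 1 regulator was called higher and 3 lower, 0 partners higher and 4 lower, and 2 non-clustered protocadherins higher and 6 lower. The cohesin subunit Smc3 gave −0.34, Lhx2 0.29, the kinase Fyn −0.24, Pcdh17 −0.84 and Pcdh10 −0.62. In hippocampus against piriform cortex, where 61.1% of all genes were called, 2 regulators were called higher and 5 lower, 6 partners higher and 5 lower, and 4 non-clustered protocadherins higher and 6 lower. Dnmt3a gave −0.69, Dnmt1 −0.26, Pcdh20 2.42 and Pcdh7 −1.11. For the burn effect in frontal cortex, edgeR called Pcdh7 as different between batches, by −1.05 in batch 2 minus batch 1 (adjusted p = 0.0379). Of all genes 1.8% were called for this difference, 1.18% lower, and Pcdh7 is 1 gene from the lists whose sizes are given above. In the same comparison the Pcdha8 call changed with the libraries left out. No such values are given for Pcdh7, and the titles of 2 burn libraries of batch 2 name sham.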

How the data were processed

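The authors deposited whole-number read counts per Ensembl gene, 1 value per gene and library, from total RNA of mouse brain read as single-end 100 bp, per the labels' protocols. Per the submitters' processing notes the tools were STAR, fastp, DESeq2 1.24.0 and FastQC 0.11.3, with the build GRCm38. How reads were counted, on which annotation and with which strand setting is not stated, so reads of overlapping and antisense genes cannot be told apart. Of 55416 identifiers 52083 had a symbol in GENCODE M21, and identifiers without one held 0.847% of the counts. No 2 libraries held identical values over 270 pairs compared within groups.

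Groups follow the treatment, tissue and batch fields. Deposited counts were tested with edgeR 4.0.16 (TMM scaling, filterByExpr, quasi-likelihood F test, Benjamini-Hochberg adjustment over all genes; R 4.3.3), within each region with treatment and batch as terms, and for regions, batches and differences of effects in 1 fit of 71 libraries over 15 groups of region, batch and treatment. DESeq2 1.42.0 was an alternative. CPM are edgeR's, and levels per kb divide them by exon length not shared with another gene. Correlations and variance shares used log2(CPM + 0.5). Scripts were tested on simulated data. Named are the called members and otherwise the 5 of smallest p in each treatment comparison, the C-types, the 3 called members of largest fold change per cluster and direction in region comparisons, the 3 highest and lowest per cluster by level and at most 5 called genes per list; others were named after their values were seen, where a count rests on them. The rule for the members uses symbols only, but the members and lists were chosen for description with earlier results of these data known. Alternatives were leaving out each library of a region in the treatment comparisons, each frontal burn or sham library in the frontal batch comparison and difference of burn effects, and piriform sham 1 in the region comparisons, and further single batches, sham libraries alone, other scaling, filter and tool, the replicate block and leaving out libraries in doubt.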

Additional observations from a re-analysis of the deposited data

Results flagged for a closer look

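In frontal cortex burn 6, Pcdhgc3 had 16.1 CPM, far below the next lowest frontal burn library at 22.2 CPM. The gap to that library, as a share of the range of the 10 libraries, was 0.487, above Dixon's 95% critical value of 0.466. This was the only such library among 72 groups of values examined, where chance alone picks out about 1 group in 20. The same library had 16.1 CPM summed over the alpha cluster.

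The burn effect on Pcdha8 in frontal cortex differed between batches, by −1.85 on the log2 scale in batch 2 minus batch 1 (edgeR's quasi-likelihood test of the difference, adjusted p = 0.0490). Of all genes 1.80% were called. The Pcdha8 call was lost when any of 11 of the 18 frontal burn and sham libraries was left out. Titles of burn 7 and 8 of batch 2 name sham.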

How the results depend on the processing

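Scaling, filter, tool, libraries in doubt and batches were varied 1 at a time. Counts of members called moved by over 1.5 times in these settings: 7 in hippocampus burn against sham with batch 1 alone, 1 in frontal cortex burn against sham and 6 in frontal cortex burn against excision with batch 1 alone, 17 in hippocampus against frontal cortex with batch 2 alone, 3 and 10 in piriform against frontal cortex and hippocampus against piriform cortex with sham libraries alone, 2 in frontal cortex batch 2 against batch 1 without libraries whose labels disagree, and 0 for the frontal cortex difference of burn effects without libraries under 10 M counts. Over whole exon length the median level per kb was 0.380 CPM for alpha and 1.52 CPM for gamma members. The cause was not tested.

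Leaving out 1 library at a time gave 0 to 1 members called in hippocampus burn against sham (1 without sham 9) and 0 in the other treatment comparisons. Leaving out 1 of the 18 frontal burn and sham libraries gave 0 to 3 in frontal cortex batch 2 against batch 1 and 0 to 1 for the frontal cortex difference of burn effects; excision libraries were not left out there, and hippocampal batch comparisons had no such fits. Some fold changes turned sign. With batch 1 alone Pcdhb5 gave 0.020 in hippocampus burn against excision. With batch 2 alone Pcdha12 gave −0.033 in frontal burn against sham, Pcdhb5 −0.026 in frontal burn against excision and Pcdhb9 0.017 in frontal excision against sham. Without piriform sham 1, Pcdhac1 gave 0.032 and Pcdhgc5 0.019 in piriform against frontal cortex. With sham libraries alone Pcdhgc3 gave −0.13 there and Pcdhgb8 gave 0.027 in hippocampus against piriform cortex. Of 739 single-gene values under settings other than leaving out 1 library, 681 kept direction and side of the threshold, 41 fell short of it and 11 passed it.

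With the replicate block, 0 members were called in all 9 treatment comparisons, as without it. Within a region and batch, same-numbered libraries of different treatments correlated at a median of −0.06 to 0.10 and others at −0.04 to 0.04. Libraries that correlated best with one of their own number were 4 of 14 and 1 of 15 in hippocampal batches 1 and 2. They were 7 of 15 and 3 of 9 in frontal cortex batches 1 and 2, and 3 of 13 in piriform cortex. Libraries of different regions were not compared, so these values cannot show whether 1 mouse gave several regions.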
